A study of Rattus norvegicus with 8 samples.

Results

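Ldha, Pgk1 and Sdha are 3 genes of sugar and energy metabolism that have probes on a rat circular RNA array, and their signals were compared between penile tissue samples labelled Control and samples labelled Model. They were found by the accession that the array files give for each probe, which gave 4 probes: 2 for Ldha, kept apart here as the custom probe and the Agilent probe, and 1 each for Pgk1 and Sdha. These 3 genes are among 38 genes with a symbol on the array, and the 4 probes are among 14227 in all. The 8 rat samples form 2 groups of 4. The series title names erectile dysfunction caused by diabetes. The labels describe a test with 100 μg/kg of apomorphine under the skin and 30 min of observation, in which rats without an erection were taken as affected. The labels do not state that Model means such rats; the title and the test make it likely. Strain, age, the way diabetes was induced and the number of animals behind a sample are not given in the sources used here, so p-values cover the spread from sample to sample only, and some of that spread may be technical. All 8 samples share 1 treatment of the RNA: digestion with RNase R, an enzyme that degrades linear RNA and spares circular RNA.

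Glycolysis splits glucose into pyruvate in the cytosol. Pgk1 encodes phosphoglycerate kinase 1, which makes ATP in the later part of that path, and Ldha encodes the A subunit of lactate dehydrogenase, which turns pyruvate into lactate and restores the NAD+ that glycolysis needs. Sdha encodes the flavoprotein subunit of succinate dehydrogenase, complex II, an enzyme that belongs both to the citric acid cycle and to the respiratory chain of mitochondria. Ldha and Pgk1 are textbook targets of the hypoxia-inducible factor HIF-1, whose response elements often carry the core ACGTG.

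The 250 bases before the annotated start are shown for the gene whose probes fell and for the gene whose probe had the opposite sign, with each ACGTG on either strand in capitals. They come from RefSeq on build GRCr8, plus strand, at chr1:106507842-106508091 for Ldha and chr1:30764303-30764552 for Sdha.
Ldha: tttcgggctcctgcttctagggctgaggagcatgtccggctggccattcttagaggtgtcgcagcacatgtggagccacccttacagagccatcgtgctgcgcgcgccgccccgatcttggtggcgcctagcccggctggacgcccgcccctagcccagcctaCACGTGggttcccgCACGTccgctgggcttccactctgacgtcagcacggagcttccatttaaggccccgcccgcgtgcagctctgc
Sdha: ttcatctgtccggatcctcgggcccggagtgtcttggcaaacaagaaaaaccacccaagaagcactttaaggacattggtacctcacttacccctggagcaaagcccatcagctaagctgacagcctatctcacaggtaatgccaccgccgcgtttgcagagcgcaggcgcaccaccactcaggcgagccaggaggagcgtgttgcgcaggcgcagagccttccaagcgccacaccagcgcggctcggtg
The Ldha window holds 3 matches. The first 2 overlap in 1 palindrome, CACGTG, that reads the same on both strands and ends 82 bases before the start. The other, on the minus strand, ends 69 bases before it. The Sdha window holds 0 matches. Of 33469 rat windows of this length, 16.6% hold at least 1 match. Only ACGTG was searched. GCGTG, another form of this core, was not counted and occurs in both windows. A match describes the letters and not a bound site, and the array does not measure transcription from these windows.

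Besides its circular RNA probes the array has a panel of 62 mRNA probes, to which these 4 belong. Each was printed as 10 spots on every array, and all 80 spots of each of the 4 probes were well above background, with none saturated. The signal is the brightness of a spot after background subtraction, in intensity units. Because RNase R had removed linear RNA, a probe reads what was left of it or any circular RNA that holds the same exon, and these cannot be told apart. Nor can fewer cells of a type be told apart from less RNA per cell. None of 34 marker genes for smooth muscle, endothelium, fibroblasts, striated muscle, epithelium, nerve, immune cells, fat and blood has a named probe on the array, so the tissue could not be checked against its markers. The arrays differed in brightness: the 75th percentile over all probes ran from 47.9 to 127 units over the Control arrays, against 55.4 to 81.6 over the Model arrays. Scanning runs were read from the scan dates, since no run is named. By date, the Model arrays form 1 run, Control 1 another and Control 2 to 4 one more. The recorded grid name also sets Control 2 to 4 apart from the other arrays. Each run thus held samples of 1 group, and run and group cannot be told apart.

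**Figure D1:**
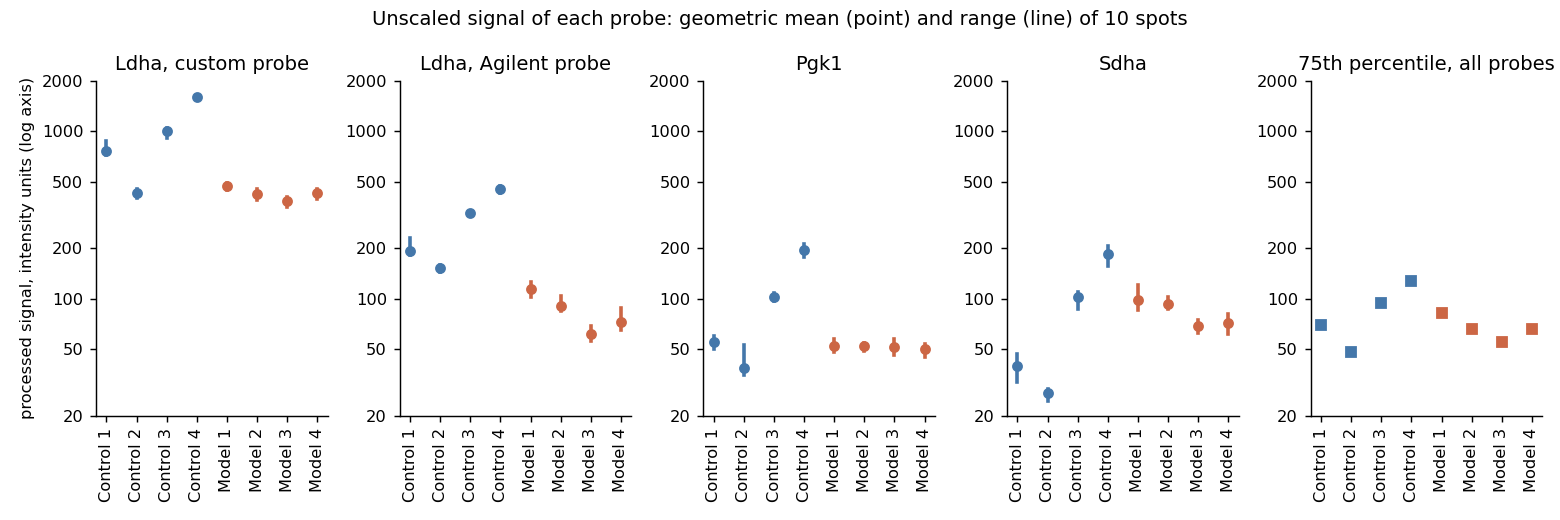
Unscaled processed signal in intensity units on a log axis for the 4 probes and, in the last panel, the 75th percentile over all probes of each array. Points are the geometric mean of 10 spots and lines run from the lowest to the highest spot. Pgk1 lies between 50.3 and 52.4 on the Model arrays whereas in Control it ranges from 38.3 to 194.

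Ldha was lower in Model on both of its probes. On the custom probe the signal was 764, 428, 1000.3 and 1596 intensity units on Control 1 to 4, and 469.5, 420.4, 385 and 429 on Model 1 to 4. Control 2, the array with the lowest 75th percentile, lay among the Model arrays before scaling. After subtracting each array's 75th percentile on the log2 scale, the custom probe stood at 3.45, 3.16, 3.40 and 3.65 in Control and at 2.52, 2.68, 2.80 and 2.70 in Model. On this relative scale the groups did not overlap, and neither did the single spots: the 40 Control spots ran from 3.06 to 3.70 and the 40 Model spots from 2.44 to 2.88. The spots are technical copies on the same arrays, so their separation adds no samples. The custom probe fell 1.67-fold, a log2 change of -0.74 (SE 0.17, 95% interval -1.12 to -0.35, limma adjusted p = 0.00581). With arrays centred on the median of all probes the change was -0.42 (limma adjusted p = 0.0654), and on the median of the mRNA panel -0.47 (limma adjusted p = 0.0701). Quantile normalization enlarged it to -1.95.

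The Agilent probe of Ldha gave 192, 152, 323 and 450.2 intensity units on Control 1 to 4 and 114, 90.2, 61.6 and 72.1 on Model 1 to 4. Every Control array was brighter than every Model array even without scaling. Relative to the 75th percentile the values were 1.46, 1.66, 1.77 and 1.82 in Control and 0.48, 0.46, 0.15 and 0.13 in Model. The 40 Control spots, from 1.39 to 1.89, lay above all 40 Model spots, from -0.02 to 0.66, and these too are technical copies on 4 arrays. The fall was 2.59-fold, a log2 change of -1.37 (SE 0.18, 95% interval -1.77 to -0.98, limma adjusted p = 2.10e-04). It passed in all 21 alternatives run for it. The changes ran from -1.87 with quantile normalization to -1.03 with normexp background correction, which here added an offset of 50 units.

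Both Ldha probes were thus among the probes that changed, at a limma adjusted p under 0.05. By the same rule 47.1% of all 13654 probes tested changed, and 45.9% of the 61 mRNA probes tested. The count of changed mRNA probes was 28, and 18 without Control replicate 3. Lower calls made up 25.0% of all probes and 31.1% of the mRNA probes, and higher calls 22.1% and 14.8%. The groups did not overlap for 43.0% of all probes and 37.7% of the mRNA probes. A fall at least as large as that of the custom probe was seen for 24.6% of the mRNA probes and 22.3% of all probes. A fall at least as large as that of the Agilent probe was seen for 8.20% and 8.10%. The median log2 change was -0.31 over the mRNA probes and -0.03 over all probes. Both Ldha changes lay within the range of the panel, and the Agilent probe had the fifth lowest change in it.

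**Figure D2:**
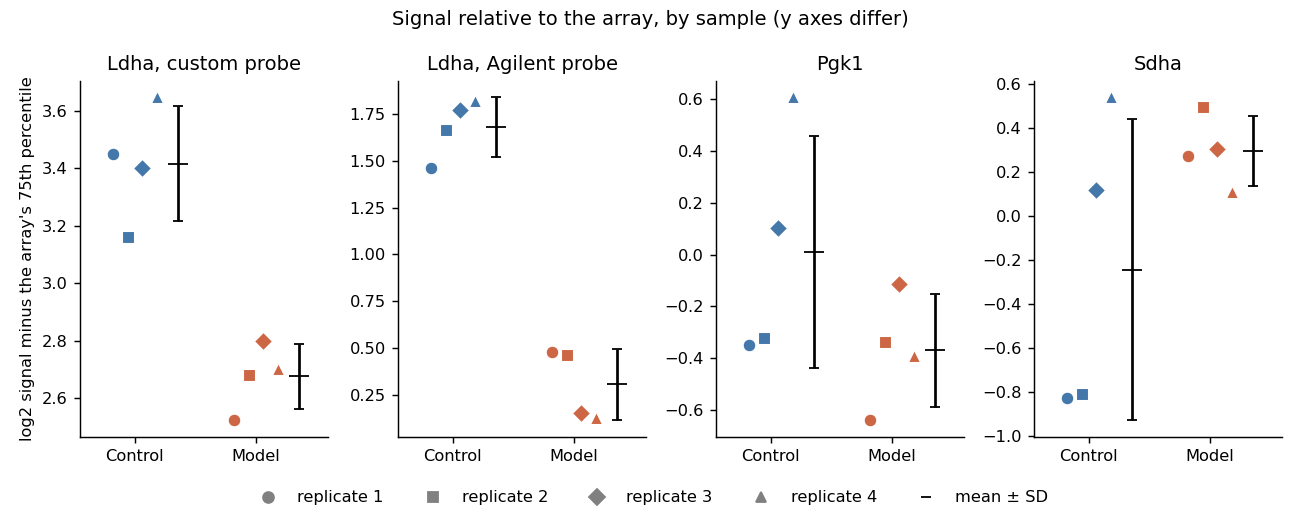
Log2 signal of each probe minus the 75th percentile of its array, by sample, with the mean and SD of 4 arrays beside each group. Marker shapes are replicate numbers, which name samples and were not treated as pairs. The Ldha groups do not overlap on either probe, whereas Pgk1 and Sdha overlap and spread most in Control.

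Pgk1 did not pass the test. Its unscaled signal was 54.9, 38.3, 102 and 194 intensity units on Control 1 to 4, a coefficient of variation of 71.9%. On Model 1 to 4 it was 52.4, 51.8, 51.3 and 50.3, a coefficient of variation of 1.74%, although the 75th percentile of the same arrays varied by 16.2%. The spread of scaled Pgk1 over the Model arrays therefore mirrors the scaling: Model 1, with the highest 75th percentile, has the lowest scaled value at -0.64, and Model 3, with the lowest, has the highest at -0.11. The other Model arrays were at -0.34 and -0.39. In Control the scaled values were -0.35, -0.32, 0.10 and 0.61, so Control 1 and 2 lay within the Model range and Control 3 and 4 above it. The log2 change was -0.38 (SE 0.24, 95% interval -0.92 to 0.16, limma adjusted p = 0.219). The interval holds both no change and a fall larger than that of the Ldha custom probe.

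Sdha had the opposite sign, but its groups overlapped. The unscaled signal was 39.5, 27.3, 103 and 185 intensity units on Control 1 to 4 and 98.8, 92.3, 68.4 and 71.1 on Model 1 to 4. Scaled to the 75th percentile, Control 1 and 2 stood at -0.82 and -0.81, and Control 3 and 4 at 0.12 and 0.54. The Model arrays lay at 0.28, 0.50, 0.31 and 0.11, inside the Control range and above its lower pair. The Control SD of 0.68 was 4.33 times the Model SD of 0.16, and both exceed the error from the spots, whose standard error was at most 0.054 on any array. Control 1 and 2 were also the dimmest Control arrays, with 75th percentiles of 69.9 and 47.9, and the part of brightness in the split was not tested.

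The log2 change of Sdha was 0.54 (SE 0.31, 95% interval -0.14 to 1.22, limma adjusted p = 0.171). The call depends on 1 array and on the zero point. Without Control replicate 4 the change was 0.80 (limma adjusted p = 0.0233), and without Control replicate 1 or Control replicate 2 it was 0.35 in both cases (limma adjusted p = 0.354 and 0.383). Over all 21 alternatives it was positive, from 0.24 with normexp to 1.12 against Control 1 alone, and it passed in 5.

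**Figure D3:**
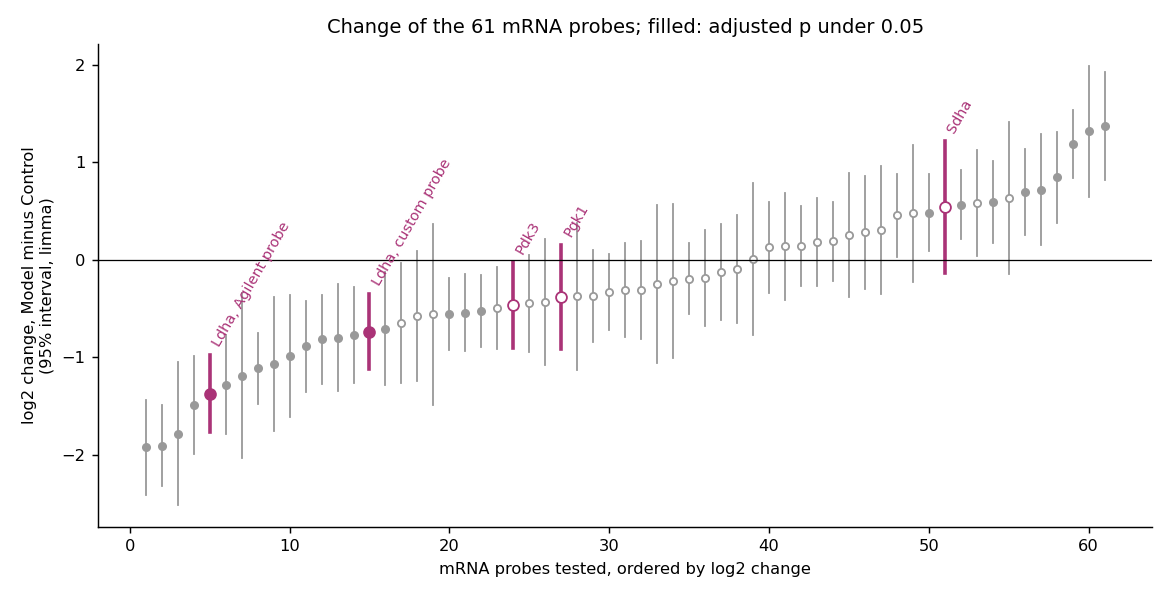
Log2 change from Control to Model with its 95% interval for the 61 mRNA probes tested, ordered from the lowest to the highest; filled points have a limma adjusted p under 0.05, and probes of the metabolic genes are in purple. The Ldha probes are at places 5 and 15, Pdk3 and Pgk1 at 24 and 27, and Sdha at 51.

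Ratios between these probes within an array do not depend on how the arrays are scaled, and they ask whether 2 probes changed unequally. The size of a ratio also reflects how well each probe binds, so only its change from Control to Model is read. The largest change among the 6 was that of the Ldha Agilent probe over Sdha. Its log2 ratio was 2.28, 2.47, 1.65 and 1.28 on Control 1 to 4 and 0.20, -0.03, -0.15 and 0.02 on Model 1 to 4. The gap between the groups was wider than the range over the Model arrays and narrower than that over the Control arrays. The Control arrays again split into Control 1 and 2 above Control 3 and 4. The ratio fell 3.77-fold, a log2 change of -1.91 (SE 0.29; exact two-sided permutation test, p = 0.0286, the smallest that 4 against 4 arrays allow, adjusted p = 0.0343 over 6 ratios).

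The Ldha custom probe over Sdha was lower in Model too. Its log2 ratio was 4.28, 3.97, 3.28 and 3.11 in Control and 2.25, 2.19, 2.49 and 2.59 in Model. This ratio fell 2.43-fold, a log2 change of -1.28 (SE 0.29; exact permutation p = 0.0286, adjusted p = 0.0343). Pgk1 over Sdha, neither of which passed by itself, also separated the groups. Its log2 ratio was 0.48, 0.49, -0.01 and 0.07 in Control and -0.91, -0.83, -0.42 and -0.50 in Model. It fell 1.89-fold, a log2 change of -0.92 (SE 0.18; exact permutation p = 0.0286, adjusted p = 0.0343), and its Control SD of 0.27 was smaller than that of Sdha or Pgk1 alone on the scaled values, 0.68 and 0.45. Sdha and Pgk1 were high on Control 3 and 4 and low on Control 1 and 2. Relative to Sdha, both glycolytic genes were lower on every Model array than on any Control array. With 1 array left out, the 3 ratios over Sdha kept their sign, with changes from -2.13 to -1.73, from -1.46 to -1.07 and from -1.01 to -0.84 in the order given here. The groups did not overlap in any of these 8 fits for any of the 3. The adjusted p over the 6 ratios, by the exact permutation test, nevertheless lay above 0.05 in 6 of the 8 for the Agilent probe and for Pgk1 and in 7 for the custom probe, at 0.0571 or 0.0686. With 1 array left out, 35 splits remain, and the smallest unadjusted p of this test is 0.0286. The Agilent probe and Pgk1 over Sdha reached it in all 8 fits, and the custom probe did except without Model replicate 1 or 2. At that floor the adjusted p depends only on how many of the 6 ratios reach it. All 3 passed without Control replicate 4, and the Agilent probe and Pgk1 also passed without Model replicate 1. The size of the 3 changes depends on the processing. Normexp gave -1.28, -1.001 and -0.48 in the same order, each smaller in size than in any fit with 1 array left out. It was run on median spot intensities and added an offset of 50 units, which compresses log2 differences between dim signals. The part of the offset in these smaller changes was not tested. Quantile normalization gave -2.39, -2.47 and -0.85. In both settings the groups of all 3 did not overlap, each at an adjusted p of 0.0343 by the exact permutation test.

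**Figure D4:**
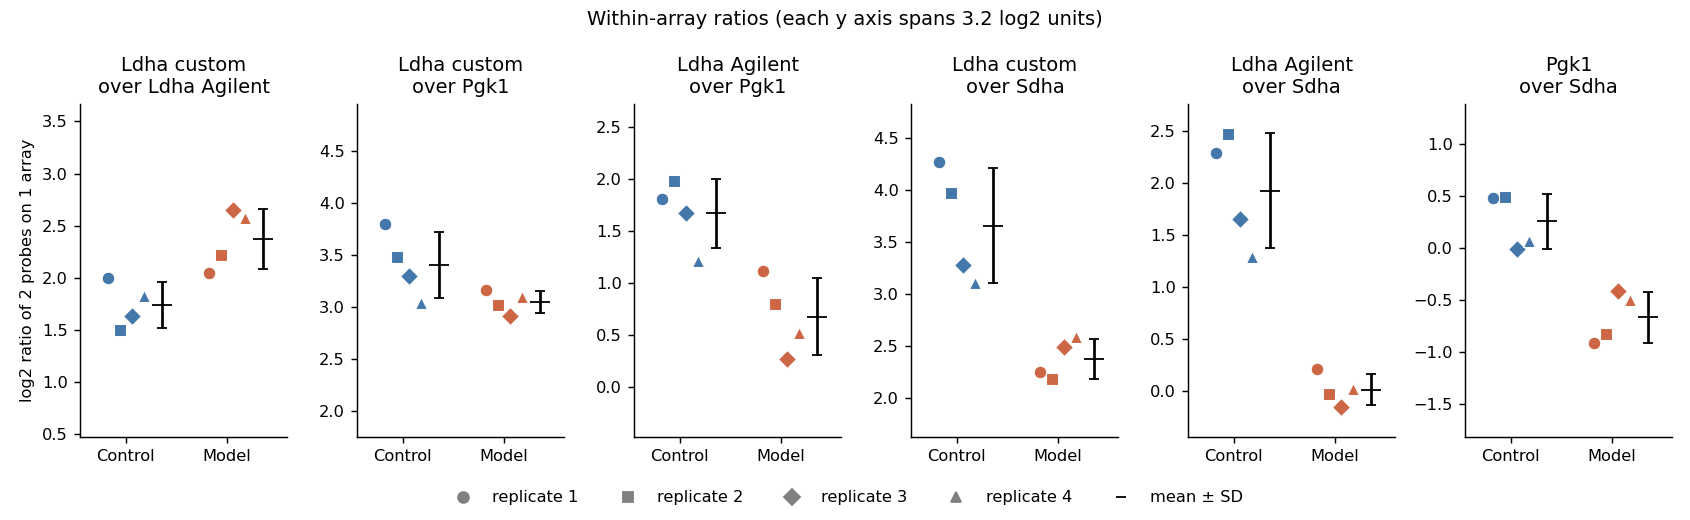
Log2 ratio of 2 probes on the same array for the 6 pairs of probes, by sample, with the mean and SD of 4 arrays beside each group; marker shapes are replicate numbers, and every y axis spans the same width. All 3 ratios over Sdha are lower on every Model array than on any Control array, and the Ldha custom probe over Pgk1 is the pair whose groups overlap.

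Over Pgk1, the Ldha probes gave different calls on the signals as deposited. The Ldha Agilent probe over Pgk1 had a log2 ratio of 1.67 ± 0.33 in Control, against 0.68 ± 0.37 in Model (SD, n = 4), with groups that did not overlap. This was a fall of 1.99-fold (log2 change -0.99, SE 0.25; exact permutation p = 0.0286, adjusted p = 0.0343). The Ldha custom probe over Pgk1 moved from 3.40 ± 0.32 in Control to 3.05 ± 0.11 in Model (SD, n = 4), a log2 change of -0.36 (SE 0.17; exact permutation p = 0.0857, adjusted p = 0.0857), and its groups overlapped. This call depends on the processing and on 1 array. Both Ldha probes over Pgk1 passed, with groups that did not overlap, with quantile normalization (custom -1.62, Agilent -1.54), with normexp (-0.52 and -0.80) and without Control replicate 4 (-0.48 and -1.14), each at an adjusted p of 0.0343 by the exact permutation test. With 1 array left out, the Agilent probe over Pgk1 passed in 2 of 8 fits, without Control replicate 4 or Model replicate 1.

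Whether the Ldha probes themselves changed unequally also depends on the processing. The custom probe over the Agilent probe had a log2 ratio of 1.99, 1.497, 1.63 and 1.83 in Control and 2.04, 2.22, 2.65 and 2.57 in Model, a rise of 1.55-fold (log2 change 0.63, SE 0.18; exact permutation p = 0.0286, adjusted p = 0.0343). Control 1 at 1.99 and Model 1 at 2.04 almost met. Under quantile normalization, which is not linear in the signal, this change turned to -0.08 (exact permutation adjusted p = 0.829). With normexp it was 0.28 and the groups overlapped (exact permutation adjusted p = 0.114). With 1 array left out the groups stayed apart in all 8 fits, but the adjusted p was above 0.05 in 7 of them, from 0.0571 to 0.0686, and the ratio passed without Model replicate 1. Relative to the 75th percentile the fall of Ldha was 1.67-fold on the custom probe and 2.59-fold on the Agilent probe.

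Separation of this kind was common on the panel. Of 1534 other pairs of mRNA probes detected on each of the 8 arrays, 40.7% had within-array ratios whose groups did not overlap, against 5 of the 6 pairs here, which share probes and are not independent.

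Of 102 genes listed for glucose uptake, glycolysis, lactate, the pyruvate dehydrogenase step, the citric acid cycle, the respiratory chain and oxygen sensing, 4 have a named probe. Besides the 3 genes above this is Pdk3, a kinase that inhibits the pyruvate dehydrogenase complex and so limits the entry of pyruvate into mitochondria. The 5 probes of these 4 genes had a median log2 change of -0.46, and 2 of them, both for Ldha, passed, each lower in Model. By the same rule 45.9% of the mRNA probes and 47.1% of all probes passed. The median log2 change over the mRNA probes was -0.31. Pdk3 was dim, at 23.6, 10.0, 27.7 and 43.0 intensity units on Control 1 to 4 and 15.7, 14.3, 12.4 and 13.6 on Model 1 to 4. Relative to the 75th percentile it was at -1.57, -2.26, -1.77 and -1.57 in Control and at -2.38, -2.20, -2.16 and -2.28 in Model. Control 2 lay among the Model arrays and the other Control arrays above them. The log2 change was -0.46 (SE 0.20, 95% interval -0.90 to -0.02, limma adjusted p = 0.0779). It passed without Control replicate 2, at -0.62 (limma adjusted p = 0.0240), and at -0.59 with the percentile taken over probes detected on all 8 arrays (limma adjusted p = 0.0326).

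The profiles of the 4 probes over the 8 arrays were compared by the root-mean-square difference of log2 values after centring each probe on its own mean, a description that includes the group difference. Among 34 named genes of the panel detected well above background on each of the 8 arrays, the profile nearest to the Ldha custom probe was Nat1, an arylamine acetyltransferase (0.133), followed by Pdk3 (0.173) and the ribosomal protein gene Rpl13a (0.195). Its distance to the Agilent probe of the same gene was larger, at 0.386, and 12 other genes were nearer. For the Agilent probe the nearest were the nucleoside transporter Slc28a2 (0.296), the RNA-binding protein Mex3c (0.333) and the microtubule protein Map2 (0.341). Only these 3 genes were nearer to the Agilent probe than the Ldha custom probe was. Pgk1 lay nearest to the phospholipase Pld1 (0.176), then to Nat1 (0.212) and to Ppp2r2b, a subunit of protein phosphatase 2A (0.216). Sdha lay nearest to the cadherin Cdh2 (0.242), the kinase Ptk2b (0.283) and Hprt1, an enzyme of purine salvage (0.351). Among the members, the Ldha custom probe and Pgk1 were nearest to each other at 0.273, and the Ldha Agilent probe and Sdha were farthest apart at 1.02.

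**Figure D5:**
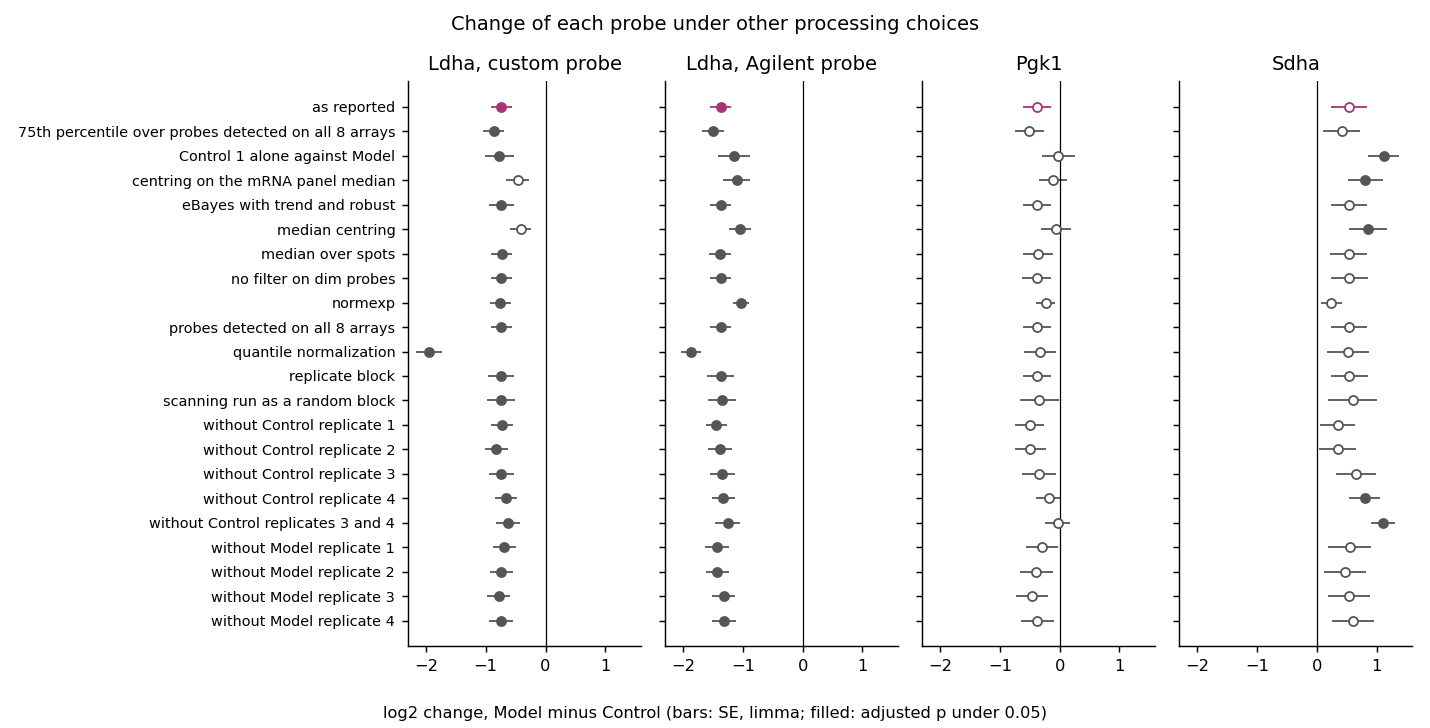
Log2 change from Control to Model of the 4 probes under each processing choice, with bars of 1 SE; filled points have a limma adjusted p under 0.05. The Ldha Agilent probe is filled throughout, the Ldha custom probe is open with centring on the median or on the panel median, Pgk1 is open throughout, and Sdha is filled in 5 of 21 alternatives.

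The zero point mattered for single probes because it moved all of them together. Median centring raised the median change over all probes from -0.03 to 0.29 and the higher share of calls from 46.9% (3018 higher and 3418 lower) to 68.3% (4700 and 2183). On that scale Ldha stood at -1.05 on the Agilent probe and -0.42 on the custom probe, Pgk1 at -0.06 and Sdha at 0.86. With centring on the mRNA panel the higher share was 66.1% (3956 and 2033), and with normexp 62.6% (2159 and 1290). From the lowest to the highest change the order was Ldha Agilent probe, Ldha custom probe, Pgk1, Sdha. A zero point moves all probes alike, so this order is kept by construction when another is subtracted. Quantile normalization is not such a shift and put the Ldha custom probe (-1.95) below the Agilent probe (-1.87).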

How the data were processed

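Total RNA of 8 rat penile tissue samples was treated with RNase R; random priming made Cy3-labelled cRNA, of which 1 μg was hybridised for 17 h at 65 °C to a 1-colour array, per the labels' protocols. Per the file headers, the intensity values deposited are Agilent Feature Extraction 11.0.1.1 processed signals (background-subtracted and detrended) and median spot and background intensities, with 0 or 1 flags per spot; no scaling between arrays is recorded. The authors also deposited a log2 table of circRNA probes, normalized by a method not given in the sources used here; it holds none of the members and served only for the count over all probes.

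Spots flagged as not uniform were dropped (56 probes lacking a value on some array were not tested), log2 signals averaged over the spots of a probe, and the array's 75th percentile subtracted. Probes well above background in most spots on at least 4 arrays were tested with limma 3.58.1 (R 4.3.3), Benjamini-Hochberg adjusted over all of them, threshold 0.05. Ratios were tested by exact two-sided permutation over 70 splits. The scripts were tested on simulated data. Symbols came from RefSeq (GRCr8) by accession: 39 of 62 mRNA probes matched. Pgk1 has no promoter shown, and probe sequences were not used here. Members, pathway list, likeness rule (the 3 nearest genes per probe) and alternatives were chosen with earlier results of these data known. Same-numbered samples were checked for pairing: their deviations from the group means correlated at 0.06, -0.04, 0.18 and -0.18. Differently numbered samples ran from -0.35 to 0.36, so the check shows no sign of pairing but cannot exclude it. The numbers were not treated as pairs in the main tests. The alternatives were other normalizations, zero points and filters, blocks for replicate number and scanning run, and leaving out arrays. Normexp used median spot and background intensities and an offset of 50 units, whereas the main fit used the processed signal.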

Additional observations from a re-analysis of the deposited data

How the results depend on the processing

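With 4 arrays a group and signals of Pgk1 and Sdha as low as 3.85 and 3.24 times the local background, modest changes of these probes are within the error, and no alternative removes the confounding of scanning run with group. Dropping Control replicates 3 and 4 together, and using Control 1 alone, were chosen after seeing the data. No cause of the differences below was tested.

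The count of changed probes, 6436 in all and 28 on the mRNA panel, was 3449 and 14 with normexp, 4055 and 14 with the run as a random block, and 4175 and 17 against Control 1 alone. Leaving out 1 array gave 5208 to 7005 and 18 to 34. The Ldha Agilent probe and Pgk1 kept direction and call in all 21 alternatives; leaving out 1 array gave -1.45 to -1.31 and -0.50 to -0.18. The Ldha custom probe kept its direction in 21 and lost its call in 2, centring on the median (-0.42) and on the panel median (-0.47); leaving out 1 array gave -0.82 to -0.66. Sdha passed in 5: at 0.86 with median centring, 0.81 with panel centring, 1.11 without Control replicates 3 and 4, 1.12 against Control 1 alone, and in the range of 0.35 to 0.80 that leaving out 1 array gave. Of the genes named by likeness, 2 that did not pass turned sign: Pld1 (0.028 against Control 1 alone) and Ptk2b (-0.060 to 0.34 on leaving out 1 array).

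Among the ratios, custom over Agilent Ldha turned to -0.081 with quantile normalization and was 0.28 with normexp, not passing there. Custom Ldha over Pgk1 passed at -1.62 with quantile normalization, -0.52 with normexp and -0.48 without Control replicate 4. Normexp shrank the ratios over Sdha to -1.001, -1.28 and -0.48 for custom Ldha, Agilent Ldha and Pgk1, which still passed. With 1 array left out, the ratios that passed on all arrays did so in 1 or 2 of 8 fits: all but custom over Agilent Ldha without Control replicate 4, and all but custom Ldha over Sdha without Model replicate 1. Agilent Ldha and Pgk1 over Sdha had the smallest possible unadjusted exact permutation p, 0.0286 from 35 splits, in all 8 fits. Whether those 2 passed thus depended on how many other ratios reached that p. Without Control replicates 3 and 4 too few splits remained for the other 5 to pass, at 0.63 for custom over Agilent Ldha, -1.22 for Agilent Ldha over Pgk1, and -1.74, -2.37 and -1.15 for custom Ldha, Agilent Ldha and Pgk1 over Sdha. Leaving out 1 array gave 0.54 to 0.74, -1.14 to -0.85, -1.46 to -1.07, -2.13 to -1.73 and -1.01 to -0.84 in that order, and -0.48 to -0.23 for custom Ldha over Pgk1. With the replicate number as a block the ratio changes are by construction the same, 0.63, -0.99, -1.28, -1.91 and -0.92 for those that passed, and cannot pass, since the smallest exact p of 4 pairs is 0.125. In limma the block gave 5964 changed probes and 22 on the panel, with both Ldha probes still passing. Whether the numbers pair samples is not known.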
